A study of Mus musculus with 9 samples.

Results

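The cytosolic ribosome of the mouse is built from a small 40S and a large 60S subunit, and the genes described here encode its proteins. They were chosen by name: the protein-coding genes whose symbol is Rps, Rpl or Rplp with a number and an optional a, x or l, together with Rpsa. The rule found 80 of the 54281 genes in the files, 31 for the 40S and 49 for the 60S subunit, and used no measured value. A further 3 symbols of that form, Rpl6l, Rpl32l and Rps4l, are annotated as pseudogenes and were left out. After the filter on low counts 77 genes were tested, 31 of the 40S and 46 of the 60S subunit, while Rpl3l, Rpl10l and Rpl39l were too low.

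RNA came from Comma-1D, an established mouse mammary epithelial cell line, sorted by the surface proteins Sca-1 and EpCAM. Population B had much Sca-1 and little EpCAM, population L the reverse, and population bi had much of both. From every population there was a control library, one after transduction with MYC and one after transduction with Her2, both called activated oncogenes in the labels. That makes 9 bulk libraries with no replicate of any combination, all from the same line grown with EGF and insulin. The labels do not say whether the controls carried an empty vector, whether the arms were separate cultures, from which species the transgenes came or which promoter drove them. A difference between 2 libraries therefore has no replicate check, and the p-values below measure only the spread between these 9 libraries around a model with a population and an arm effect.

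Ribosomal proteins are made in near-equal amounts and assembled with ribosomal RNA in the nucleolus. Their messenger RNAs are among the most abundant of a growing cell, and most begin with a run of pyrimidines, the terminal oligopyrimidine (TOP) tract, through which mTORC1 signalling controls their translation. MYC is known as a transcriptional activator of genes for ribosome production. Her2, the product of Erbb2, is a receptor tyrosine kinase that signals to the PI3K and mTORC1 pathways.

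Totals ran from about 46915000 to 98874000 assigned reads per library. In each population Myc peaked after MYC transduction and Erbb2 after Her2 transduction, measured as CPM, the estimated reads of a gene scaled to 1000000 assigned reads. Epcam stayed at 0.171 to 0.796 CPM in B and lay between 239.8 and 550.0 CPM in L and bi, and Ly6a, which encodes Sca-1, was lowest in the L library of each arm. The summed level of 6 luminal markers was 1.71 to 5.29 CPM in B, 660.0 to 2052 in L and 378 to 404 in bi. The summed level of 5 basal markers was 2336 to 6777 CPM over all libraries. Of 7 immune markers 4, and of 4 endothelial markers 3, stayed under 1 CPM in every library. The summed level of the immune markers was 8.46 to 12.7 CPM in B, 32.0 to 141 in L and 21.2 to 42.6 in bi, most of it in L and bi from Cd14. Cd14 alone was at 3.79 to 6.31, 24.3 to 136 and 15.2 to 36.4 CPM in B, L and bi, and rose against B by 3.43 on the log2 scale in L (SE 0.33, adjusted p = 0.000102, edgeR) and by 2.22 in bi (SE 0.32, adjusted p = 0.00181, edgeR). The summed level of the endothelial markers was 1.71 to 5.24 CPM over all libraries.

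Many ribosomal protein genes have near-identical copies elsewhere in the genome, mostly processed pseudogenes made from their spliced messenger RNA, and the estimated counts divide the reads of a family among its loci. A search of the coding sequences against other transcripts found 1018 copies with at least 90% identity over at least 50% of the coding sequence, for 76 of the 80 genes, and 998 of them were annotated as pseudogenes. The copies held 20.7 to 23.0% of the reads of the families in each library. They held more than 50% of the reads of the family for 15 genes and less than 1% for 50 genes.

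Rps18, a protein of the head of the 40S subunit, is shown with its copies because few bases separate them and because its fold change between L and B was the largest of the 77 genes. Its locus, chr17:33951999-33956001 (GRCm38), was at 12.6 CPM on average, while Gm10260 was at 223 and Gm11361 at 200.1 CPM, both on chromosome 13 and annotated as protein-coding. Over the 459 coding bases Gm10260 differed from Rps18 at 4 positions and Gm11361 at 3. The stretch from base 282 to base 371, counted from the first base of the start codon, is given for the 3 genes (GENCODE M21 transcripts, GRCm38), with capitals where any of them differs.
Rps18: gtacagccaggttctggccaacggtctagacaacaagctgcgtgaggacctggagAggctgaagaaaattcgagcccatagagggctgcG
Gm10260: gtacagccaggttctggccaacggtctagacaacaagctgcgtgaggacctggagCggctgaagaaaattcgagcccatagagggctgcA
Gm11361: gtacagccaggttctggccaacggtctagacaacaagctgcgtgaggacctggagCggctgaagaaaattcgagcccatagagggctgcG
Both copies carry A337C relative to Rps18, and Gm10260 also carries G371A. A read that covers neither position matches all 3 loci in this stretch.

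Reads of other genes were divided in the same way. Rps2, a 40S protein at the messenger entry channel, was at 6.20 CPM on average while its copies were at 1949 CPM, nearly all in Rps2-ps10. Rpl5, which binds 5S ribosomal RNA, was at 60.6 CPM and Gm15500 on chromosome 7, identical to it over all 894 coding bases, at 857 CPM. Rpl10, Rpl12 and Rpl3 were at 57.7, 59.3 and 179 CPM, with 765, 742 and 735 CPM in their copies. Among pseudogenes named after their parent, those of Rps23 and Rpl28 followed, with 227 and 189 CPM against 250.1 and 398 CPM at the genes themselves. For these genes the level at the locus is uncertain.

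**Figure D1:**
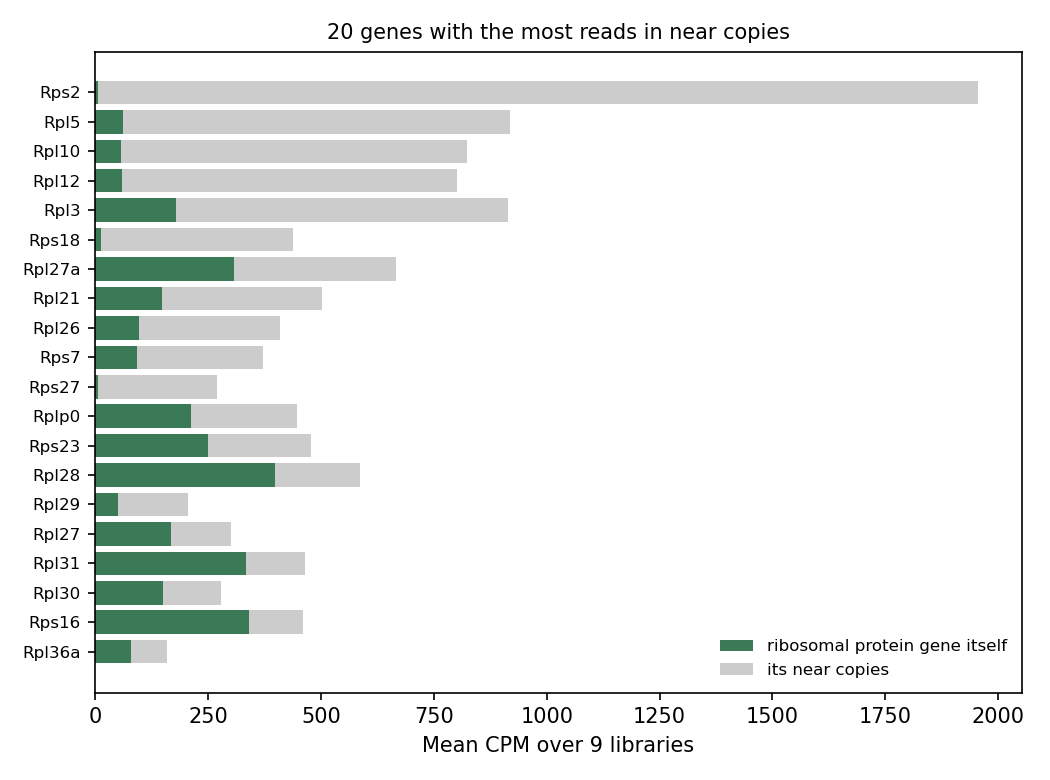
Mean CPM over the 9 libraries (horizontal axis) of the ribosomal protein genes with the most reads in near copies, split into the gene itself and its copies. The part of the gene itself is barely visible for Rps2, at 6.20 CPM of a family of 1955 CPM.

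Levels were compared between genes with the deposited TPM, which is scaled for length. The highest means were those of Rpl41 at 2462 TPM, which encodes a very short 60S protein, Rps15 at 1714, Rpl32 at 1659, Rpl23a at 1638 and Rps12 at 1626 TPM. The lowest were Rpl39l, listed at 0 in all 9 libraries, Rpl10l, listed at 0 in 8 of them, Rpl3l at 0.0911, Rps2 at 8.52 and Rps27 at 23.0 TPM. Most reads of the Rps2 and Rps27 families were assigned to copies, as the family levels of 1955 and 270.5 CPM show. The deposited length of a gene can be short (84.9 bases on average for Rpl41), which raises its TPM.

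The 80 genes together took 2.34 to 4.11% of the assigned reads of a library. In B their share was 2.64, 4.11 and 3.47% in the control, MYC and Her2 libraries. In L it was 3.14, 3.32 and 2.76%, and in bi it was 3.03, 3.42 and 2.34%. The MYC library had the highest share in each population, whereas the Her2 library lay above the control in B and below it in L and bi. Both subunits moved alike, with a ratio of 60S to 40S reads of 1.49 to 1.57 over the 9 libraries. With the copies added the shares were 3.38, 5.24 and 4.42% in B, 4.05, 4.18 and 3.58% in L and 3.90, 4.35 and 3.01% in bi, in the same order of arms. As a share of the deposited TPM the control stood above MYC in L, at 6.17% against 5.88%. In bulk RNA, fewer cells of a type and less RNA per cell cannot be told apart.

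The share of small structural RNAs annotated as misc_RNA, such as 7SK and 7SL, was 2.90, 4.16 and 3.63% in the control, MYC and Her2 libraries of B, 3.15, 4.01 and 3.87% in L and 3.24, 4.10 and 2.19% in bi. It had the same order of arms as the ribosomal protein genes in B and bi but not in L. Ribosomal RNA loci took 9.70 to 16.1% of reads, least in B with Her2 and most in bi with Her2. Without ribosomal RNA and mitochondrial genes the shares were 3.06, 4.63 and 3.87% in B, 3.62, 3.82 and 3.21% in L and 3.52, 4.06 and 2.82% in bi, in the same order of arms. The part of the misc_RNA in the result was not tested.

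**Figure D2:**
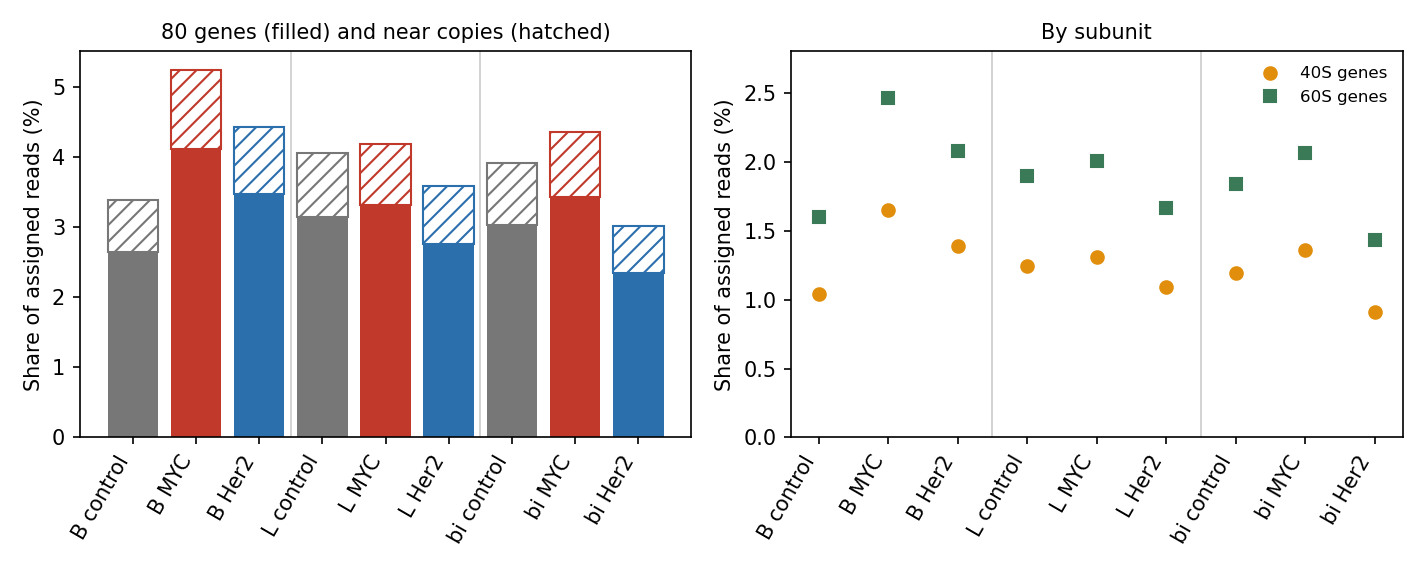
Share of assigned reads (%) in each of the 9 libraries, for the 80 genes and their near copies (left) and for the 40S and 60S genes (right), coloured by arm. The B MYC library is the highest, at 4.11% without copies, and the bi Her2 library the lowest, at 2.34%.

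The first comparison asks how these genes differed between MYC and control. In B 77 of 77 tested genes were higher in the MYC than in the control library, with a median log2 ratio of 0.84 after TMM scaling, a correction for the composition of each library, while 48% of all 23834 genes tested were higher. In bi 64 of 77 were higher, with a median of 0.17, against 54.1% of all genes. In L 18 of 77 were higher, with a median of -0.07, against 52.7% of all genes. The direction in L depended on the scaling, since the summed share without TMM was 1.06 times that of the control. Within B the log2 ratio ranged from 0.10 for Rps27l to 1.27 for Rps27. The Rps27 locus held few of the reads of its family, which was at 257 CPM in the B control and 362 CPM with MYC. Of these, 253 and 353 CPM were in the identical copy Rps27rt.

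Over the 3 populations the fitted log2 fold change of MYC against control was above 0 for 74 of 77 genes, against 52.9% of all genes, with a median of 0.31 against 0.03 for all genes. In edgeR's quasi-likelihood test 0 of the 77 passed an adjusted p of 0.05, against 0.365% of all genes. An unadjusted p under 0.05 was found for 2, against 13.9% of all genes. DESeq2 called 0 of the 77, against 966 of 18751 genes with an adjusted p, and limma 0, against 519 of 23834. The smallest p were those of Rpl3, Rpl10a and Rpl17. Rpl3, which reaches the peptidyl transferase center, was at 167, 159.9 and 153 CPM in the B, L and bi controls and at 249.6, 197 and 234 CPM with MYC. Every MYC value of Rpl3 lay above every control value, with a log2 fold change of 0.50 (SE 0.20, adjusted p = 0.292, edgeR). With its copies the Rpl3 family was at 883, 805 and 779 CPM in the controls and 1316, 996 and 1154 CPM with MYC, with a log2 fold change of 0.49 (SE 0.21, adjusted p = 0.339). Rpl10a, a protein of the L1 stalk, was at 354, 299.6 and 339 CPM in the controls and at 576, 390.0 and 457 CPM with MYC, with a log2 fold change of 0.50 (SE 0.20, adjusted p = 0.298, edgeR). Without TMM scaling the MYC values of Rpl10a also lay above every control value. The order of L MYC and the bi control depended on the scaling, with TMM factors of 1.14 and 0.949, where a higher factor lowers the scaled level. Rpl17, near the exit of the nascent peptide tunnel, was at 469, 424 and 413 CPM in the controls and 822, 533 and 567 CPM with MYC, with a log2 fold change of 0.52 (SE 0.23, adjusted p = 0.362, edgeR). The median over the 77 genes was 0.05 without the B control library, 0.17 without B MYC, 0.48 without L MYC and 0.48 without the bi control.

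The second comparison is Her2 against control. In B 74 of 77 genes were higher with Her2, with a median log2 ratio of 0.43, against 47.8% of all genes. In L 34 of 77 were higher, with a median of -0.03, against 48.1% of all genes. In bi 0 of 77 were higher, with a median of -0.57, against 44.7% of all genes. The log2 ratios in bi ranged from -1.27 for Rplp0, the scaffold of the ribosomal stalk, to -0.12 for Rps18. Rplp0 was at 216 CPM in the bi control and 101 CPM with Her2, but at 180.3 CPM in the B control and 276 CPM with Her2.

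The fit over the 3 populations averaged these opposite directions, with a median of -0.06 for Her2 against control and 19 of 77 genes above 0, against 48.6% of all genes. In edgeR's test 0 passed, against 0.021% of all genes. DESeq2 called 0 of the 77, against 509 of 21061 genes with an adjusted p, and limma called 0 of 23834 genes. In edgeR's test 1 of the 77 had an unadjusted p under 0.05, against 8.80% of all genes. That gene was Rpl5, at 82.2, 50.9 and 55.1 CPM in the B, L and bi controls and 71.2, 30.01 and 41.2 CPM with Her2, with a log2 fold change of -0.44 (SE 0.16, adjusted p = 0.43, edgeR). With the reads of its copies added the log2 fold change of Rpl5 was -0.02 (SE 0.26, adjusted p = 0.997). Rps27 and Rps29, 40S proteins, had the next smallest p, with log2 fold changes of -0.52 (SE 0.32, adjusted p = 0.769, edgeR) and -0.36 (SE 0.22, adjusted p = 0.778, edgeR). The Rps27 family had -0.41 (SE 0.21, adjusted p = 0.673). The median over the 77 genes turned positive without bi Her2 (0.14), without the bi control (0.11) and without the L control (0.02), and was -0.25 without the B control.

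**Figure D3:**
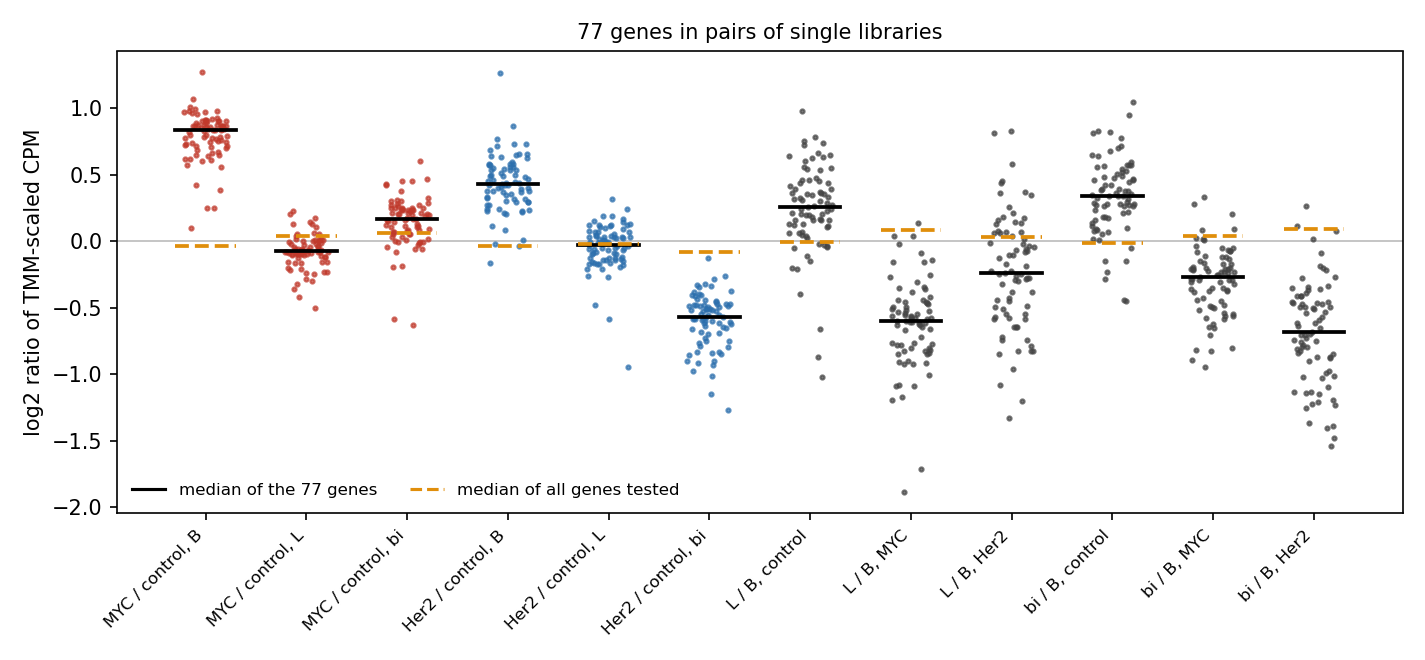
Log2 ratio of TMM-scaled CPM (vertical axis) for the 77 tested genes in pairs of single libraries, 1 dot per gene, with the median of the 77 genes and of all genes tested. All dots lie above 0 for MYC against control in B and below 0 for Her2 against control in bi, where the medians are 0.84 and -0.57.

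Set against each other, MYC had higher fitted values than Her2 for 74 of 77 genes, against 51.5% of all genes, with a median log2 fold change of 0.35. Between single libraries 75 of 77 were higher in B (median 0.37, against 49.6% of all genes) and 76 of 77 in bi (median 0.75, against 51.6%). In L 31 of 77 were higher, with a median of -0.04, against 53.1% of all genes. The summed share in L without TMM was 1.20 times that with Her2. In edgeR's test 0 of 77 passed, against 4.57% of all genes. An unadjusted p under 0.05 was found for 11, all higher with MYC, against 19.1% of all genes. DESeq2 called 0 of the 77, against 1887 of 21061 genes with an adjusted p, and limma 0, against 500 of 23834. Rpl5 came nearest, with a log2 fold change of 0.66 (SE 0.16, adjusted p = 0.0539, edgeR), which became 0.43 (SE 0.26, adjusted p = 0.422) with the copies added. Rpl5 passed without the B control or without B Her2, and Rps27 passed without the B control. Rpl3 had a log2 fold change of 0.59 (SE 0.20, adjusted p = 0.134, edgeR) and Rps27 one of 0.93 (SE 0.32, adjusted p = 0.137, edgeR). With the copies added these became 0.60 (SE 0.21, adjusted p = 0.155) for Rpl3 and 0.76 (SE 0.21, adjusted p = 0.079) for Rps27. Both comparisons with control share the 3 control libraries, and MYC against Her2 shares libraries with each of them.

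The genes moved together from library to library. The B MYC library held the highest TMM-scaled level for 66 of the 77 genes, against 14.9% of all genes. The bi Her2 library held the lowest for 55, against 12.8% of all genes, and the B control library the lowest for another 15, against 11.3%. Over the 9 libraries the log2 level of a ribosomal protein gene had a median standard deviation of 0.34, against 0.47 for all genes tested. After the median of the 77 genes in each library was subtracted, it was 0.16. The genes with the widest variation among those at 10 CPM or more were Rps28 with a standard deviation of 0.66, Rps18 with 0.61, Rpl22 with 0.57, Rplp0 with 0.54 and Rpl36a with 0.50.

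**Figure D4:**
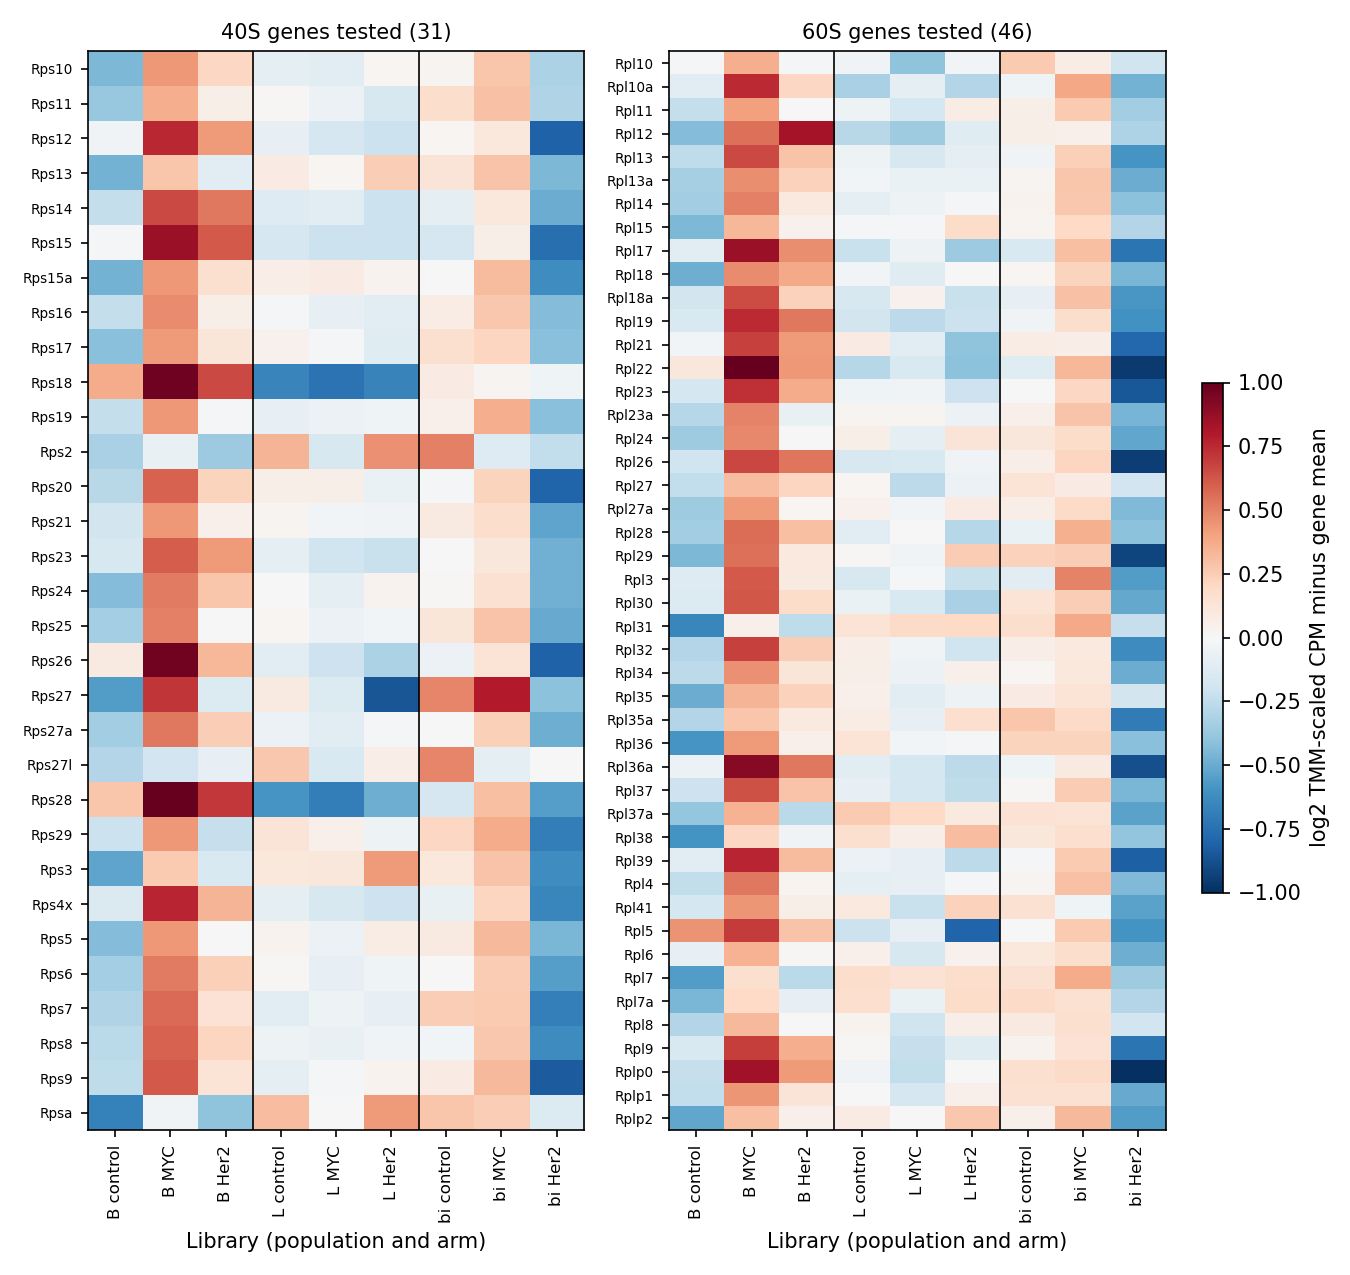
Log2 TMM-scaled CPM minus the mean of the gene (colour) for the 77 tested genes (rows) in the 9 libraries (columns), ordered by population and arm. The B MYC column holds the highest level of 66 genes and the bi Her2 column the lowest of 55.

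For the populations, the question is how L and bi differed from B. In the controls most genes were higher outside B: 64 of 77 were higher in L, with a median log2 ratio of 0.26 against 49.8% of all genes, and 70 of 77 were higher in bi, with a median of 0.34 against 49.5% of all genes. With MYC the direction was the opposite, with 3 of 77 higher in L (median -0.60, against 53.6% of all genes) and 8 of 77 higher in bi (median -0.27, against 52.5%). With Her2 23 of 77 were higher in L (median -0.24, against 51.6%) and 4 of 77 in bi (median -0.68, against 54.2%). In the fit over the arms 59 of 77 genes were lower in L, against 47.1% of all genes, with a median of -0.18. In bi 62 of 77 were lower, against 47.4%, with a median of -0.18. The medians ran from -0.41 without the B control to -0.00243 without L MYC for L, and from -0.42 without the B control to 0.04 without bi Her2 for bi.

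Rps18, Rps28, Rpl5 and Rpl22 fell in L against B in edgeR's test, 4 of 77 genes, while 20.8% of all genes were called, and 0 of the 77 rose. Rps28 and Rpl5 also fell in bi against B, 2 of 77, while 13% of all genes were called. The 5.19% and 2.60% called among the ribosomal protein genes were below the shares of all genes. That order turned round without the B control library, when 19 of the 77, or 24.7%, were called in L against 21.6% of all genes, and 16 of the 77, or 20.8%, in bi against 13.2%, all those of the 77 that were called being lower. Between bi and L edgeR called 0 of 77, against 0.751% of all genes. DESeq2 called 0 of the 77, against 663 of 21523 genes with an adjusted p, and limma 0, against 2 of 23834. In edgeR's test 1 of the 77 had an unadjusted p under 0.05, against 8.65% of all genes. That one was Rps18, with a log2 fold change of 0.71 (SE 0.20, adjusted p = 0.216, edgeR), followed by Rps28 with 0.45 (SE 0.23, adjusted p = 0.73, edgeR) and Rps27 with 0.58 (SE 0.31, adjusted p = 0.748, edgeR). With the copies added the direction of Rps27 turned, at -0.27 (SE 0.21, adjusted p = 0.936), while Rps18 had 0.45 (SE 0.23, adjusted p = 0.712). Without TMM scaling the Rps27 family was lower in bi than in L in every arm, at 247, 309 and 149 CPM against 299.5, 351 and 208 CPM. In the MYC arm this order depended on the scaling, with TMM factors of 0.951 in bi and 1.14 in L. The summed level of 7 fibroblast markers was 85.4 to 139 CPM in B, 16.3 to 21.5 in L and 24.4 to 36.6 in bi. Most of it in B came from Pdgfra, at 61.4, 94.9 and 52.7 CPM in the control, MYC and Her2 libraries. Of the 6 markers tested 5 were called lower in L against B, against 20.8% of all genes, and Col3a1 was not. In bi against B 3 were called lower, against 13% of all genes. The part of these and of the immune markers in the results was not tested.

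Rps28, a small 40S protein at chr17:33819027-33824562, was at 263, 445 and 342 CPM in the control, MYC and Her2 libraries of B, at 141, 147 and 133 CPM in L and at 176, 244 and 153 CPM in bi. Without TMM scaling every value of B lay above every value of L and of bi. The order of the B control and bi MYC values depended on the scaling, with TMM factors of 1.04 and 0.951. The log2 fold change was -1.31 (SE 0.24, adjusted p = 0.00374, edgeR) in L and -0.86 (SE 0.23, adjusted p = 0.0385, edgeR) in bi. The call in L held in each of the 9 fits that left out 1 library. The call in bi was lost without any one of B MYC, B Her2, L control, bi control, bi MYC and bi Her2, with an adjusted p of up to 0.179. Kank3, which overlaps Rps28 on the opposite strand at 5.61 CPM, was not called in L against B, at -0.22 on the log2 scale (SE 0.27, adjusted p = 0.649, edgeR).

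Rps18 was at 15.7, 21.4 and 18.7 CPM in B, at 7.55, 7.94 and 6.61 CPM in L and at 11.7, 11.3 and 12.2 CPM in bi, so that the 3 populations did not overlap. The log2 fold change in L was -1.37 (SE 0.21, adjusted p = 0.00141, edgeR). Its copies followed it, with -1.41 (SE 0.22, adjusted p = 0.00169) for Gm10260 and -1.34 (SE 0.24, adjusted p = 0.00391) for Gm11361. The Rps18 family as a whole was at 463, 899 and 711 CPM in B and 249, 308 and 236 CPM in L, with a log2 fold change of -1.38 (SE 0.23, adjusted p = 0.00262). In bi the gene had -0.65 (SE 0.20, adjusted p = 0.0661, edgeR) and did not pass, while the family, at 305, 478 and 291 CPM, fell by 0.93 on the log2 scale (adjusted p = 0.0269). Vps52, which overlaps the Rps18 locus on the opposite strand at 27.0 CPM on average, also fell in L against B, by 1.20 on the log2 scale (SE 0.17, adjusted p = 0.000882). The kit is stranded, but whether the counting used the strand is not given in the sources used here.

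Rpl22, an RNA-binding 60S protein at chr4:152325742-152334071, was at 212, 361 and 257 CPM in B, 158, 192 and 128 in L and 164, 225 and 104 in bi. Every L value lay below every B value, whereas the bi MYC value lay above the B control. The log2 fold change was -0.82 (SE 0.24, adjusted p = 0.0381, edgeR) in L and -0.77 (SE 0.24, adjusted p = 0.0673, edgeR) in bi. The call in L was lost without B MYC, B Her2, L control, L MYC or L Her2, with an adjusted p of up to 0.177. Limma did not call Rpl22 in L.

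Rpl5, which together with Rpl11 can also inhibit Mdm2, lies at chr5:107900502-107909005. It was at 82.2, 87.4 and 71.2 CPM in B, 50.9, 62.0 and 30.01 in L and 55.1, 65.7 and 41.2 in bi, with all B values above the others. The log2 fold change was -0.85 (SE 0.16, adjusted p = 0.00541, edgeR) in L and -0.59 (SE 0.16, adjusted p = 0.0424, edgeR) in bi, and the call in bi held in 2 of the 9 fits that left out 1 library, those without the B control and without L Her2. Limma and the fit without the filter on low counts did not call Rpl5 in bi. With the copies added the Rpl5 family was at 841, 1429 and 1241 CPM in B and 830.2, 932 and 721 CPM in L, and neither call remained, with -0.52 (SE 0.26, adjusted p = 0.201) in L and -0.63 (SE 0.26, adjusted p = 0.155) in bi. Fam69a, which overlaps Rpl5 on the opposite strand at 9.62 CPM, fell in L by 1.29 on the log2 scale (SE 0.26, adjusted p = 0.00596).

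At the other end of the fold changes stood Rpsa, which was named after its values were seen and did not pass the test. Rpsa, a 40S protein also known as the laminin receptor, was at 737, 1027 and 864 CPM in B, 1426, 1288 and 1369 in L and 1297, 1272 and 1105 in bi. Without TMM scaling all values of L and bi lay above those of B. The order of bi Her2 and B MYC depended on the scaling, with TMM factors of 1.08 and 0.933. The log2 fold changes were 0.62 (SE 0.24, adjusted p = 0.0976, edgeR) in L and 0.49 (SE 0.23, adjusted p = 0.22, edgeR) in bi. Rpsa was called higher in L without the filter on low counts, without TMM and without L MYC (adjusted p = 0.0355, 0.0164 and 0.0344). Relative to the median of the 77 genes in the same library, the log2 difference of L minus B in the control, MYC and Her2 arms was -1.23, -1.39 and -1.15 for Rps28, -1.38, -1.22 and -1.29 for Rps18, -0.75, -0.70 and -0.80 for Rpl22, -1.02, -0.29 and -1.04 for Rpl5 and 0.62, 0.53 and 0.87 for Rpsa. These 5 genes were picked by their fold changes over the same libraries, so the values describe the arms and add no support.

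**Figure D5:**
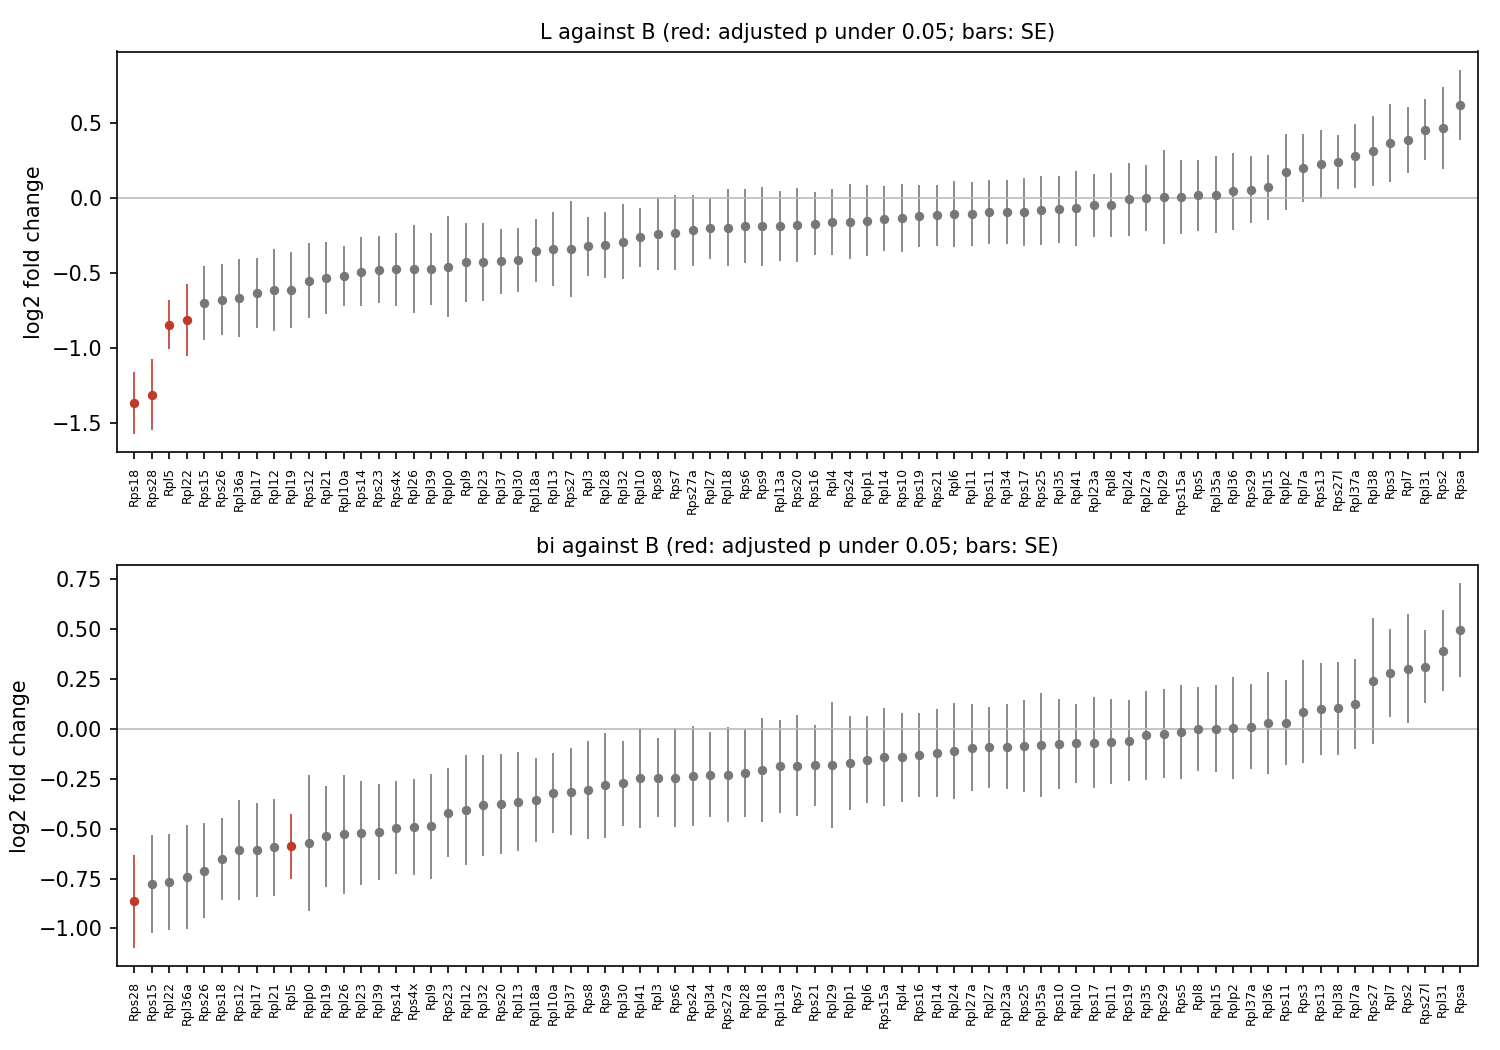
Fitted log2 fold change with its SE (vertical axis) of the 77 genes in L against B and bi against B, ordered by value, with genes at an adjusted p under 0.05 marked. In L Rps18 and Rps28 are the lowest, at -1.37 and -1.31, and Rpsa is the highest, at 0.62.

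Since the genes moved together, the sequences around their transcription starts were compared. Of the 80 genes 60 matched an entry of the RefSeq table (GRCm38.p6) that gives 250 bases before and 50 from each start. A TOP-like tract was searched as a C followed by pyrimidines, at least 5 bases in all, beginning within 5 bases of the annotated start on the sense strand. It was found in 27 of 60 genes, or 45%, against 18.4% of all 27025 windows. CCGGAAG, a core bound by ETS-family factors, was on either strand in 24 of 60 genes, or 40%, against 9.16% of all windows. CACGTG, the E-box that MYC can bind, was on either strand in 5 of 60 genes, or 8.33%, against 7.2% of all, and TATAAA in 5 of 60 genes, or 8.33%, against 14.2% of all. The starts of the 3 genes that fell in L with and without copies and of the paralogues Rps27 and Rps27l are shown from 50 bases before to 20 bases from the annotated start, with the tract and any CCGGAAG in capitals.
Rps18 (chr17:33955646-33955715, minus strand): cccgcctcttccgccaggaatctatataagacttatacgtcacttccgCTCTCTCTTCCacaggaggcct
Rps28 (chr17:33824543-33824612, minus strand): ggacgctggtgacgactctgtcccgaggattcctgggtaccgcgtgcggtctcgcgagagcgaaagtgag
Rpl22 (chr4:152325676-152325745, plus strand): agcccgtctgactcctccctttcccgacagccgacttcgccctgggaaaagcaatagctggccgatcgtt
Rps27 (chr3:90213629-90213698, minus strand): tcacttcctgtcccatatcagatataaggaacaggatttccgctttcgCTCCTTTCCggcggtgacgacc
Rps27l (chr9:66946036-66946105, plus strand): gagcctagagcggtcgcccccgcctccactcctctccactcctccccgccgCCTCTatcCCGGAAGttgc
Rps18, Rps27 and Rps27l had a tract of 11, 9 and 5 bases, and the search found none at the annotated starts of Rps28 and Rpl22. The RefSeq starts of Rps18 and Rpl22 differ from the edges of the loci given above. A tract at another start would have been missed by the search. A match is a description of these letters only.

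Some ribosomal proteins have a paralogue that can take their place in the ribosome. Rpl3l, a striated-muscle form of Rpl3, was at 0.0426 to 0.204 CPM, and Rpl3 at 128 to 249.6 CPM. Rpl10l and Rpl39l, known from testis, were listed at or near 0, beside 49.4 to 68.8 CPM for Rpl10 and 137 to 355 CPM for Rpl39. Rps27l, a paralogue of Rps27 known as a p53 target, was present at 43.4 to 70.6 CPM. It shares 76.3% of 253 aligned coding bases with Rps27, so that reads tell the pair apart, as the first 90 coding bases show, with capitals where they differ (GENCODE M21, GRCm38).
Rps27: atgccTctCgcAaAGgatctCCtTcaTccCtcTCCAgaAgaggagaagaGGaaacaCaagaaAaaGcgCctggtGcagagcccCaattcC
Rps27l: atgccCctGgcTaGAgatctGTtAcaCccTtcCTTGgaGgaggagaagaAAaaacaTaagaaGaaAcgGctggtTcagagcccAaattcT

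Rps27l was at 45.3, 65.3 and 70.6 CPM in the B, L and bi controls and 43.4, 54.4 and 47.2 CPM with MYC. It was lower with MYC in L and bi, while in B the direction depended on the scaling, with a log2 ratio of 0.10 after TMM. The fitted log2 fold change was -0.31 (SE 0.18, adjusted p = 0.509, edgeR), the lowest of the 77 genes. The Rps27 family, which includes the identical Rps27rt, was at 257, 299.5 and 247 CPM in the controls and 362, 351 and 309 CPM with MYC, with a log2 fold change of 0.35 (SE 0.21, adjusted p = 0.526). Neither passed the test, and the difference between the pair was not tested. The Rps2 family was lower with MYC in L and bi and higher in B, at 1395, 2629 and 2518 CPM in the controls and 1591, 1657 and 1727 CPM with MYC, with a log2 fold change of -0.33 (SE 0.26, adjusted p = 0.657).

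Other genes of the translation machinery were read from lists beside the 77. Among 8 ribosomal protein genes outside the name rule, Rack1, Fau and Rps3a1 among them, 6 had a higher fitted value with MYC than in the control. The median log2 fold change was 0.30, and 52.9% of all genes were higher. In edgeR's test 0 of the 8 were called in any of the 6 comparisons, where 0.021% to 20.8% of all genes were called. Among 19 translation factors with TOP messenger RNAs 14 were higher with MYC, against 52.9% of all genes, with a median of 0.22. Of the 19, 0 were called in any comparison, against the same 0.021% to 20.8% of all genes. Eef2, the elongation factor that moves the ribosome along the messenger, was at 3751, 2946 and 2602 CPM in the B, L and bi controls and at 6817, 3805 and 4207 CPM with MYC. Without TMM scaling the values did not overlap. The order of L MYC and the B control depended on the scaling, with TMM factors of 1.14 and 1.04. The log2 fold change was 0.64 (SE 0.26, adjusted p = 0.3, edgeR). The summed level of the 19 factors was 15368, 23384 and 19739.9 CPM in the control, MYC and Her2 libraries of B, 15808, 18267 and 15006 in L and 15194, 19313 and 13385 in bi, with the same order of arms as the share of the ribosomal protein genes.

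Of 8 host genes of small nucleolar RNAs, whose transcripts also begin with a TOP tract, 2 fell in L against B, where 20.8% of all genes were called. In the other comparisons 0 were called, where 0.021% to 13% of all genes were called. Gas5 was at 107, 232 and 211 CPM in B and 86.9, 108 and 67.3 in L, with a log2 fold change of -1.10 (SE 0.29, adjusted p = 0.0261, edgeR). Zfas1 was at 33.1, 99.0 and 119 CPM in B and 29.4, 37.1 and 24.9 in L, with a log2 fold change of -1.43 (SE 0.41, adjusted p = 0.0349, edgeR). For both genes the B control lay within the range of L without TMM scaling. For Gas5 this depended on the scaling, with TMM factors of 1.04 for the B control and 1.14 for L MYC.

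Of 20 genes of the mTORC1 pathway and regulators of TOP messenger RNAs 0 were called for MYC or Her2 against control. Of all genes 0.365% and 0.021% were called there. In MYC against Her2 4 of the 20 rose, where 4.57% of all genes were called. Pdcd4, an inhibitor of translation initiation, was at 93.3, 58.2 and 70.4 CPM with MYC in B, L and bi and at 33.7, 6.46 and 5.69 CPM with Her2, a log2 fold change of 2.73 (SE 0.39, adjusted p = 0.00764, edgeR). Sesn3 and Sesn1, which encode sestrins that restrain mTORC1, rose by 1.59 (SE 0.21, adjusted p = 0.00605, edgeR) and 1.21 (SE 0.19, adjusted p = 0.0101, edgeR) on the log2 scale. Deptor, an inhibitory subunit of the kinase complex, rose by 1.17 (SE 0.23, adjusted p = 0.0246, edgeR). Mtor, the kinase itself, fell against B by 0.96 in L (SE 0.20, adjusted p = 0.00731, edgeR) and by 0.78 in bi (SE 0.20, adjusted p = 0.0281, edgeR). Against B, Pdcd4 also fell in L and bi, Ddit4 rose in L, and Mlst8 and Rptor, subunits of the complex, rose in bi, which makes 3 of the 20 called in L, against 20.8% of all genes, and 4 in bi, against 13%.

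Of 6 chaperones and assembly factors of ribosomal proteins 2 were called in L against B, against 20.8% of all genes, and 1 in bi, against 13%. Tsr2, the chaperone of Rps26, fell in L against B with a log2 fold change of -0.89 (SE 0.23, adjusted p = 0.0238, edgeR). Bccip rose in L, by 0.76 (SE 0.18, adjusted p = 0.014, edgeR), and in bi, by 0.67 (SE 0.18, adjusted p = 0.0358, edgeR). With MYC against control 5 of the 6 had a negative fold change and 1 a positive one, against 52.9% of all genes with a positive one. The median was -0.40, and 0 were called, against 0.365% of all genes. Mitochondrial ribosomal proteins, which build a separate ribosome inside mitochondria, had a negative fold change with MYC for 57 of 78 genes. The fold change was positive for 21, against 52.9% of all genes. The median of the 78 was -0.17, and 0 were called, against 0.365% of all genes. Their summed level was 1774, 1975 and 2322 CPM in the control, MYC and Her2 libraries of B, 2493, 2076 and 2149 in L and 2570.5, 2007 and 2190.1 in bi. In L against B 4 of them rose and 2 fell, against 20.8% of all genes called, and in bi against B 2 rose, against 13%. Mrpl12 was at 43.6, 47.0 and 65.8 CPM in B, 219, 158 and 200.3 in L and 227, 158 and 210.2 in bi, and rose by 1.85 (SE 0.22, adjusted p = 0.000329, edgeR) in L and by 1.93 (SE 0.22, adjusted p = 0.000492, edgeR) in bi on the log2 scale.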

How the data were processed

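Bulk RNA of 9 sorted Comma-1D populations was made into libraries with a stranded kit that depletes ribosomal RNA, per the labels' protocols, although the molecule label says polyA RNA. Per the submitters' processing notes Salmon 0.9.1 and the mm10 genome were used, and the annotation release is not given in the sources used here. The authors deposited estimated counts per gene, with TPM and average lengths, per the file headers. Which of 2 named extraction kits a library was made with is not given. Estimated counts were rounded and tested with edgeR 4.0.16 in R 4.3.3: quasi-likelihood fit with population and arm terms and 4 residual degrees of freedom, TMM scaling, genes kept by filterByExpr (minimum count 10, total 15), and p adjusted by Benjamini-Hochberg over 23834 genes. SE is the log2 fold change divided by the root of F. CPM values use all assigned reads. Ratios of single libraries use TMM and a prior count of 2, with no test. Of the gene IDs 174 matched no symbol. Copies were found with blastn 2.17.0 in GENCODE M21 transcripts, and start windows come from RefSeq (GRCm38.p6). The fit was checked on simulated counts.

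Genes were named by rule: members called in a comparison, or the 3 with the smallest p; the 5 highest and 5 lowest by TPM; the 5 most variable; paralogue pairs; those with most pseudogene reads; and members of other lists with the smallest p. The genes and lists were chosen with earlier results of these data known. Alternatives were DESeq2 1.42.0, its size factors, no filter, limma 3.58.1 on log2(TPM + 1), no TMM, named pseudogene reads added, 346 ribosomal RNA and mitochondrial genes removed, and each library left out. Adding the reads of sequence-matched copies was chosen after seeing the data.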

Additional observations from a re-analysis of the deposited data

Results flagged for a closer look

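The share of reads taken by the 80 genes moved in opposite directions under the same contrast. These are ratios of single libraries, and the differences between them were not tested. The log2 ratio of the share in Her2 against control came to 0.40 for population B, -0.19 for L and -0.37 for bi. For L against B it was 0.25 in the control arm, -0.31 with MYC and -0.33 with Her2. For bi against B it was 0.20, -0.26 and -0.57 in the same order of arms. For bi against L it was -0.052, 0.046 and -0.235. After TMM scaling the median log2 ratio of the 77 tested genes in bi against L was 0.06, 0.32 and -0.47. Its sign in the control arm was thus the reverse of that of the share. For Her2 against control in L the median after TMM was -0.03. The signs of the other ratios given here were the same after TMM.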

How the results depend on the processing

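No paired analysis was possible because each population and arm has 1 library and the labels give no replicate numbers. For MYC and Her2 against control and for bi against L, 0 of the ribosomal protein genes were called under every alternative run. Among all genes DESeq2 called 966 of 18751, 509 of 21061 and 663 of 21523 in these comparisons. For MYC against Her2 the count of 0 became 2 without TMM (Rpl3 and Rpl5), against 1244 of 23834 genes. With 1 library left out it was 0 to 2, the 2 without the B control library, against 1499 of 24700 genes. For L against B the count of 4 became 8 without a filter (1 higher and 7 lower), 10 without TMM (2 higher and 8 lower) and 3 to 19 with 1 library left out. Of all genes 5574 of 39687 were called without a filter and 5067 of 23834 without TMM. The 19 came without the B control library, where 21.6% of all genes were called. In L against B DESeq2 called Rps15 and Rps26 besides the 4, against 5178 of 23834 genes. Limma called Rpl10a, Rpl36a and Rps26 but not Rpl22, against 4038 of 23834 genes. For bi against B the count of 2 became 6 with DESeq2, 5 without a filter, 8 without TMM and 0 to 16 with 1 library left out. Of all genes 3646 of 23834 were called with DESeq2, 3796 of 39687 without a filter and 3463 of 23834 without TMM. The 16 came without the B control library, where 13.2% of all genes were called. Rps18 and Rps28 were called in L against B by every alternative test run. With 1 library left out the median log2 fold change ran from 0.05 to 0.48 for MYC against control, 0.13 to 0.54 for MYC against Her2, -0.25 to 0.14 for Her2 against control, -0.42 to 0.036 for bi against B and -0.21 to 0.20 for bi against L. Its direction reversed for Her2 against control without bi Her2 (0.14), the bi control (0.11) or the L control (0.02), for bi against B without bi Her2, and for bi against L without bi Her2, the L control (0.07) or L Her2 (0.05). The cause was not tested. Leaving out the filter moved the median of all genes in L against B from 0.04 to 0.13. With 4 residual degrees of freedom and no replicate of any combination, a difference of one arm between populations counts as noise in the fit.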
